A study of Rattus norvegicus with 18 samples.

Results

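Members of the BMP and TGF-beta pathway are described here in rat lungs after ischemia and reperfusion. The set was 10 genes: the ligand Tgfb1, the receptors Bmpr2, Bmpr1a, Acvrl1, Tgfbr1 and Tgfbr2, the target genes Id1, Id2 and Id3, and the inhibitor Smad7. It was selected on the signals of Bmpr2 and Tgfb1, which were lower than control in operated lungs, and of Id1, which was lower than control in left lungs at 30 min. Every comparison of a member with control is therefore a description, without a test. Probe sets were matched by their annotated gene symbol, and 9 of the 10 genes were found through 13 of the 15923 probe sets of the array. Tgfbr2 had no probe set in the annotation used and was not analysed here. Of the 13 probe sets 12 had enough signal to be tested and entered the fits over 10533 probe sets. The dimmest of 3 Smad7 probe sets did not.

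BMP and TGF-beta ligands bind pairs of type II and type I receptor kinases, which phosphorylate SMAD proteins that enter the nucleus and regulate transcription. Id1, Id2 and Id3 encode inhibitors of basic helix-loop-helix transcription factors and are classic targets of BMP signals, while Smad7 is an induced inhibitor that binds type I receptors. In the lung the pathway is best known in the endothelium, where mutations of BMPR2 cause heritable pulmonary arterial hypertension and mutations of ACVRL1 cause hereditary hemorrhagic telangiectasia in people.

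RNA from 18 whole lungs of male Sprague-Dawley rats was hybridised to 1-colour Affymetrix rat 230A arrays. In 2 groups the left lung had been clamped at the hilum for 2 h, warm and in place, under anesthesia, ventilation and a left thoracotomy, with reperfusion afterwards of 30 min in 3 lungs and of 3 h in the other 3. The unclamped right lungs of the operated rats were collected at 30 min (n = 3) and at 3 h (n = 3). Control lungs came from 6 rats and were taken right after sacrifice (n = 6). The side of the control lungs is not given, and controls had no thoracotomy and no period of ventilation in the labels, so surgery, ventilation and clamp cannot be told apart in a comparison with control. All clamped lungs were left lungs, so clamp and side cannot be told apart either. Whole-lung RNA also does not separate fewer cells of a type from less RNA per cell.

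The deposited values are MAS5 signals, in linear units after scaling of every array by the authors to the same trimmed mean. Differences below are of log2(signal + 25), with limma standard errors, and a call is a Benjamini-Hochberg adjusted p under 0.05 over the 10533 probe sets. The number of arrays limits the precision of all values. Actin was read at its 3' and its 5' end, and their ratio, which is higher in degraded RNA, reached 4.81 (left 30 min replicate 1), 2.3 (left 30 min replicate 3) and 2.93 (right 30 min replicate 3), while the remaining 15 arrays had 1.31 to 1.78. Results that rest on these arrays are given with and without them. Without them only left 30 min replicate 2 and right 30 min replicates 1 and 2 remain at 30 min. Of 24 endothelial markers 20 were on the array, none of them at 0, and their summed signal was 48320 to 52480 in left lungs at 30 min, 42560 to 49720 in left lungs at 3 h, 46690 to 58420 in right lungs at 30 min, 48760 to 51680 in right lungs at 3 h and 48680 to 55190 in controls. Single markers moved in both directions. Of the 18 tested, 5 were called lower than control and 2 higher in clamped lungs after 30 min of reperfusion. After 3 h clamped lungs had 4 lower and 2 higher. Unclamped lungs had 3 lower and 1 higher at the earlier time, then 4 lower and 2 higher. Of all 7728 genes 18.2%, 37.6%, 12.3% and 20.4% were called in these comparisons, in that order. The part of these markers in the member values was not tested.

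Id3 was the member called among operated lungs outside the genes selected on, so the 150 bases before its outermost annotated start are shown beside those of the related Id1 and Id2 (RefSeq, GRCr8, 5′ to 3′ on the strand of the gene). Capitals mark the letters TATAA on the given strand and CCAAT on either strand, where the other strand reads ATTGG. The windows are chr3:161671375-161671524 (plus strand) for Id1, chr5:153656103-153656252 (plus strand) for Id3 and chr6:47470996-47471145 (minus strand) for Id2.
Id1: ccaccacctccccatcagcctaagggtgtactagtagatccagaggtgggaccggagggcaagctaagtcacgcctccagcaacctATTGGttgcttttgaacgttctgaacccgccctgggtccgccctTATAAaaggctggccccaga
Id3: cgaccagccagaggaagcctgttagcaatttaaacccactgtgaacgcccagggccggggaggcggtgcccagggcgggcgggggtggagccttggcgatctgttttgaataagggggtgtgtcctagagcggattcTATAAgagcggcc
Id2: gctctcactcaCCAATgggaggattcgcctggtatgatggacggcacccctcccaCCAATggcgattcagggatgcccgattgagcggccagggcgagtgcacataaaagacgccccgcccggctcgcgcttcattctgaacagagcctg
Id1 and Id3 each held 1 TATAA, which was present in 11.3% of the 24679 promoters with a full window of this kind, and Id2 held 0. Id1 held 1 CCAAT and Id2 held 2, a motif present in 23.9% of those promoters, and Id3 held 0. The letters GGCGCC, the core of a BMP-type SMAD site, and CAGAC, a SMAD box, were searched on both strands and were in 0 of the 3 windows, against 5.38% and 28.1% of all windows. These are matches of letters, and their absence says only that the letters are not in these windows.

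Bmpr2, the type II receptor of BMP ligands, had the widest gap between operated and control lungs among the members. Its signal was 374, 412 and 360 in left lungs at 30 min and 388, 199 and 345 in left lungs at 3 h. Right lungs had 288, 343 and 430 at 30 min and 270, 282 and 398 at 3 h, and controls had 1311 to 2179 with a median of 1794. Every operated lung lay below every control, clamped or not. Of all tested probe sets 15.8%, 22.6%, 12% and 15.3% lay below every control in these groups, in that order. The same shares apply to the members below. The log2 differences from control were -2.12 ± 0.2 in left lungs at 30 min, -2.44 ± 0.2 in left lungs at 3 h, -2.23 ± 0.2 in right lungs at 30 min and -2.39 ± 0.2 in right lungs at 3 h (SE), or 4.34-fold to 5.43-fold lower on this scale. Over 27 other settings the 4 differences stayed between -2.61 and -1.93.

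Bmpr1a, a type I receptor that pairs with Bmpr2, was lower in the same lungs by less. It had 216, 212 and 285 in left lungs at 30 min, 254, 234 and 348 in left lungs at 3 h, 232, 235 and 285 in right lungs at 30 min and 286, 328 and 233 in right lungs at 3 h, against 399 to 532 in controls with a median of 451.5. All 12 operated lungs again lay below all 6 controls, by log2 -0.89, -0.69, -0.82 and -0.67 in that order of groups (SE 0.14 each).

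Acvrl1, the type I receptor of endothelium known as ALK1, was lowest in clamped lungs at 3 h. Its signal was 2270, 2663 and 2616 in left lungs at 30 min, 1254, 1611 and 2505 in left lungs at 3 h, 2395, 2228 and 3643 in right lungs at 30 min and 2608, 2805 and 2367 in right lungs at 3 h. Controls lay close together, at 3160 to 3409 with a median of 3295. Of the 12 operated lungs only right 30 min replicate 3, an array of high actin ratio, was not below the controls. Differences from control were -0.39, -0.93, -0.29 and -0.34 (SE 0.17 each).

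Tgfbr1, the type I receptor of TGF-beta, was level across groups in its brighter probe set. Group means were 1090, 1120, 1150 and 1110 in the operated groups and 1030 in controls, with differences from control of 0.08 to 0.13 (SE 0.16) and overlapping arrays in every group. Its dimmer probe set lay between 85.63 and 223.1 in all 18 lungs and differed from control by -0.5 ± 0.17 on the log2 scale in left lungs at 30 min, unlike the brighter one.

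Tgfb1, the ligand, was lowest in unclamped right lungs at 3 h. Its signal was 321, 402 and 239 in left lungs at 30 min, 176, 190 and 163 in left lungs at 3 h, 268, 235 and 171 in right lungs at 30 min and 118, 10.3 and 112 in right lungs at 3 h. Controls had 334 to 456 with a median of 411. Left lungs at 30 min overlapped the controls (-0.31 ± 0.31), and the other groups lay below every control, by -1.07, -0.78 and -2.26 (SE 0.31 each). The last value rests on right 3 h replicate 2, whose signal of 10.3 is near the 5th percentile of all signals (8.816), and is -1.6 ± 0.17 without that array. In left lungs at 30 min the difference ran from -0.48 to 0.02 over the 27 other settings.

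Immune cell markers moved in the same lungs, with no marker at 0. The 7 of 12 neutrophil markers on the array summed to 6934 to 17250 in left lungs at 30 min, 8359 to 21450 in left lungs at 3 h, 6745 to 12570 in right lungs at 30 min and 8355 to 18680 in right lungs at 3 h, against 2662 to 4491 in controls. The 11 of 15 lymphocyte markers summed to 1887 to 3534, 1576 to 2814, 1847 to 2714 and 1822 to 2059 in those groups, against 3065 to 3880 in controls. Single neutrophil markers moved in both directions. Of 6 tested, 3 were called higher than control in each operated group, while 1, 1, 1 and 0 were called lower. Of 8 lymphocyte markers tested, 3, 6, 5 and 6 were called lower and 0 higher. Of all 7728 genes 18.2%, 37.6%, 12.3% and 20.4% were called in these comparisons. The part of the immune cell markers in the values of Tgfb1 and the receptors was not tested.

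**Figure D1:**
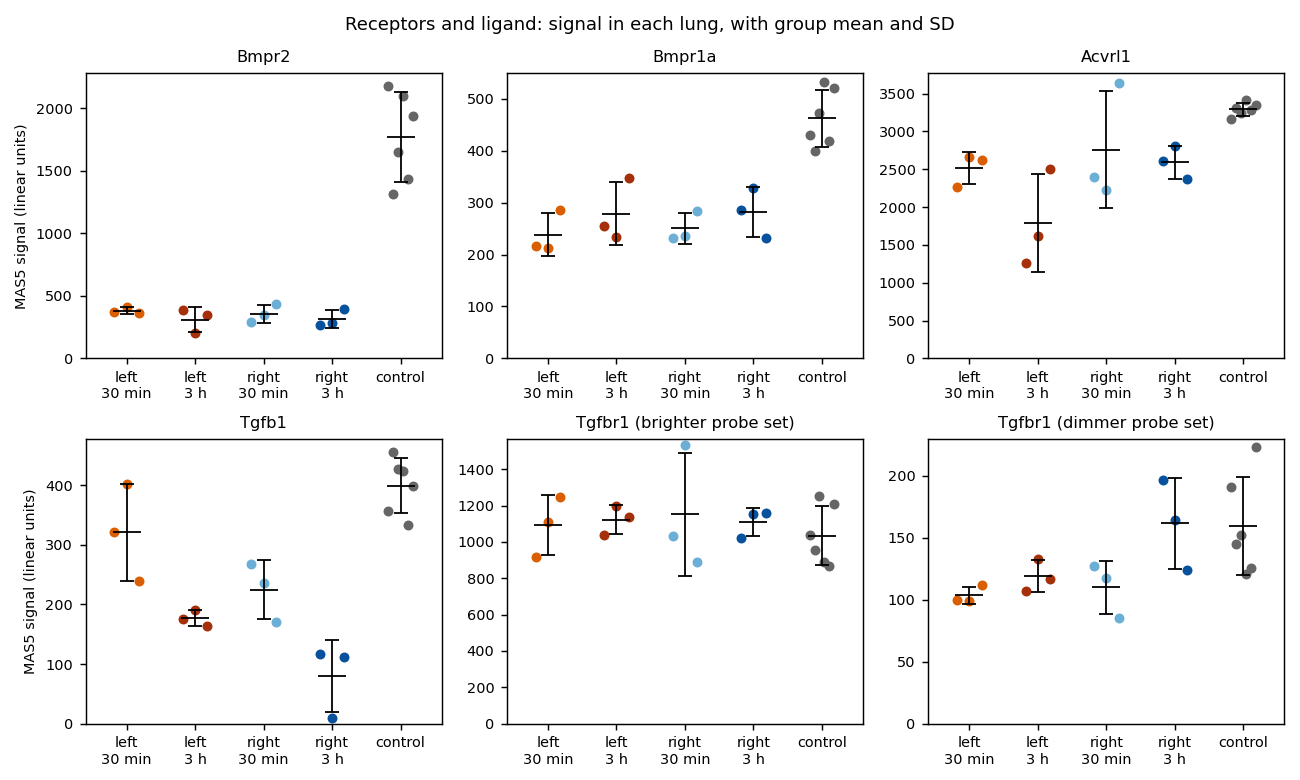
MAS5 signal (linear units) of the receptors and of Tgfb1 in each lung by group, with points for lungs and bars for the group mean and SD. All 12 operated lungs lie below the 6 controls for Bmpr2 and Bmpr1a, while the brighter Tgfbr1 probe set overlaps in every group. In single operated groups 12% to 22.6% of all tested probe sets lay below every control.

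Id1 was below control in clamped lungs at 30 min and not in the other operated groups. It had 3107, 2335 and 2616 in left lungs at 30 min, 4184, 4575 and 4358 in left lungs at 3 h, 5293, 4351 and 4879 in right lungs at 30 min and 4555, 5143 and 5534 in right lungs at 3 h, against 3358 to 4368 in controls with a median of 3899. Left lungs at 30 min lay below every control (-0.55 ± 0.11), and right lungs at 3 h lay above every control (0.37 ± 0.11). Left lungs at 3 h (0.16) and right lungs at 30 min (0.3) overlapped the controls. The difference in left lungs at 30 min was -0.74 when arrays of high actin ratio were left out, which leaves only replicate 2 in that group.

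Id3 was below control in all operated groups and furthest in clamped lungs at 30 min. Its signal was 876, 1117 and 668 in left lungs at 30 min, 1717, 1942 and 1328 in left lungs at 3 h, 1907, 1599 and 1570 in right lungs at 30 min and 1745, 2196 and 1143 in right lungs at 3 h, against 1992 to 2949 in controls with a median of 2324. Differences were -1.4, -0.5, -0.47 and -0.51 (SE 0.19 each), and right lungs at 3 h overlapped the controls. The left 30 min difference was -1.05 without the arrays of high actin ratio, which leaves only replicate 2 in that group. Id2 differed from control by -0.39 to 0.4 over both of its probe sets and the 4 groups, with overlapping arrays throughout.

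Smad7 had lower group means in operated lungs than in controls in all 3 of its probe sets, with overlapping arrays in part of the groups. The brightest had 299, 330 and 332 in left lungs at 30 min, 536, 404 and 402 in left lungs at 3 h, 332, 239 and 313 in right lungs at 30 min and 340, 459 and 452 in right lungs at 3 h, against 454 to 813 in controls. At 30 min both lungs lay below every control (-0.94 and -1.06, SE 0.17), and at 3 h they overlapped the controls (-0.49 and -0.59). The next in signal differed from control by -1.18, -0.79, -0.67 and -0.54 (SE 0.2), and overlapped the controls in right lungs at 30 min. The third, which was not tested, had signals of 84.3 to 232.4. It differed by -0.64, -0.23, -0.24 and -0.31, and overlapped the controls in all groups but left lungs at 30 min.

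Counted over the 12 tested member probe sets, all arrays lay below every control in 8 in left lungs at 30 min (15.8% of all tested probe sets), 6 in left lungs at 3 h (22.6%), 5 in right lungs at 30 min (12%) and 5 in right lungs at 3 h (15.3%). All arrays lay above every control in 1, that of Id1 in right lungs at 3 h, and in 0 in the other groups. No share of all probe sets is given here for that direction. The medians of the 12 log2 differences were -0.52, -0.5, -0.45 and -0.43, against -0.07, -0.12, -0.04 and -0.04 over all tested probe sets. The members were picked with these comparisons in view, so nothing is read from these counts.

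**Figure D2:**
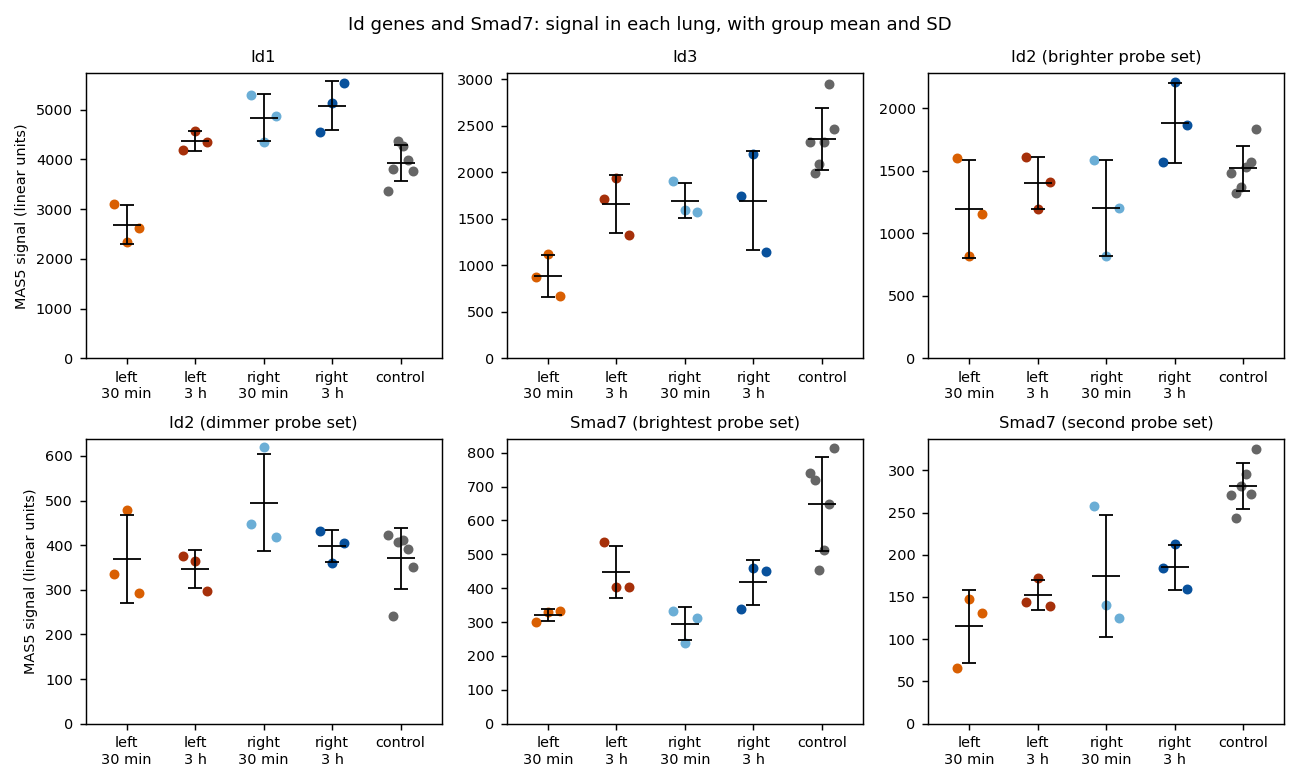
MAS5 signal (linear units) of Id1, Id3, Id2 and Smad7 in each lung by group, with points for lungs and bars for the group mean and SD. Id1 and Id3 are lowest in left lungs at 30 min, at 2335 to 3107 for Id1 and 668 to 1117 for Id3.

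Comparisons among operated lungs were not the ones used to pick the set. Id1, Bmpr2 and Tgfb1 were picked partly on the same operated arrays, however, so the differences of these 3 genes below are a description, with no p. The left 30 min arrays are the ones in which Id1 was low against control. In clamped against unclamped lungs at 30 min Id1 had 2335 to 3107 in left lungs and 4351 to 5293 in right lungs, a log2 difference of -0.85 ± 0.13 (SE). It was -1.03 ± 0.19 without the 3 arrays of high actin ratio, which leaves 1 left lung and 2 right lungs. Outside those genes 0 member probe sets were called in this comparison by limma, where 4 of all 10533 were (0.038%), or 8 with the replicate number as a block, and 905 had an unadjusted p under 0.05. Right lungs at 30 min were also higher in erythroid markers, 5 of 10 being on the array and none at 0, which summed to 13480 to 16680 in left lungs and 17160 to 24850 in right lungs. Their part in the Id1 difference was not tested.

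Id3 had the same direction at 30 min without a call. Left lungs had 668 to 1117 and right lungs 1570 to 1907, which do not overlap (6.54% of all tested probe sets were separated in this direction), and the difference was -0.94 ± 0.22 (limma adjusted p = 0.17). It was -0.63 without the arrays of high actin ratio, which leaves only replicate 2 of the left lungs. For the other members the 95% intervals of the left-right difference at 30 min included 0, except 1 Smad7 probe set (the second in signal, -0.5, interval -0.98 to -0.03, limma adjusted p = 0.55).

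In clamped lungs Id3 rose at 3 h against 30 min, by 0.9 ± 0.22 (1328 to 1942 at 3 h, against 668 to 1117 at 30 min, limma adjusted p = 0.035). The 2 times did not overlap, and 9.12% of all tested probe sets were separated in this direction. Of the 9 probe sets of members outside the genes selected on, 1 was called higher and 0 lower, where 1.59% of all probe sets were called higher. The Id3 call was lost without the arrays of high actin ratio, with a difference of 0.55 and only left 30 min replicate 2 remaining at 30 min. It was also lost without left 3 h replicate 1 (limma adjusted p = 0.14) or replicate 2 (0.099). The same held without left 30 min replicate 1 (0.14) or replicate 3 (0.13). Id1 had 4184 to 4575 at 3 h, against 2335 to 3107 at 30 min, a log2 difference of 0.71 ± 0.13 that again rests on the arrays it was selected on.

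In right lungs Id1 and Id3 differed little between the times, by 0.07 (95% interval -0.21 to 0.34) and by -0.04 (-0.51 to 0.42), 3 h minus 30 min. The change of the left-right difference between the times was 0.94 ± 0.31 for Id3 (limma adjusted p = 0.46), so a different time course in the 2 lungs was not called, and 0.64 ± 0.19 for Id1. Outside the genes selected on, 0 member probe sets were called in that comparison (0.228% of all, 740 at an unadjusted p under 0.05). In right lungs over time 0 of them were called (0.199% of all, 1432 unadjusted).

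In clamped against unclamped lungs at 3 h 0 member probe sets outside the genes selected on were called by limma. Of all probe sets 2.28% were called there, and 1842 had an unadjusted p under 0.05. Tgfb1 had 176, 190 and 163 in left lungs and 118, 10.3 and 112 in right lungs, which do not overlap (7.5% of all tested probe sets were separated in this direction), a difference of 1.19 ± 0.36 that was 0.53 ± 0.19 without right 3 h replicate 2. In right lungs Tgfb1 was below its 30 min values in every array at 3 h, as were 7.19% of all tested probe sets, with a log2 difference of -1.48 ± 0.36, or -0.82 ± 0.19 without that array. Tgfb1 was lower at the later time in left lungs too, at 163 to 190 against 239 to 402, a log2 difference of -0.75 ± 0.36. The change of its left-right difference between the times was 0.73 ± 0.51. Cardiac muscle markers, 11 of 12 on the array with none at 0, summed to 410 to 535 in left lungs and 2517 to 11380 in right lungs at 3 h, and their part was not tested. Acvrl1 was -0.58 ± 0.2 in left against right lungs at 3 h (limma adjusted p = 0.14), and passed without left 3 h replicate 3 (-0.85 ± 0.17, adjusted p = 0.019). Of alveolar type II cell markers 9 of 10 were on the array, with none at 0. They summed to 38990 to 52660 in left lungs and 57680 to 70580 in right lungs at 3 h, against 60310 to 64480 in controls. In left lungs at 3 h 6 of the 9 were called lower than control, where 37.6% of all genes were called in either direction. Their part in the Acvrl1 values was not tested. Bmpr2 differed between left and right lungs by 0.12 at 30 min (95% interval -0.37 to 0.6) and by -0.05 at 3 h (-0.54 to 0.43), which leaves differences of about that width undetected.

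**Figure D3:**
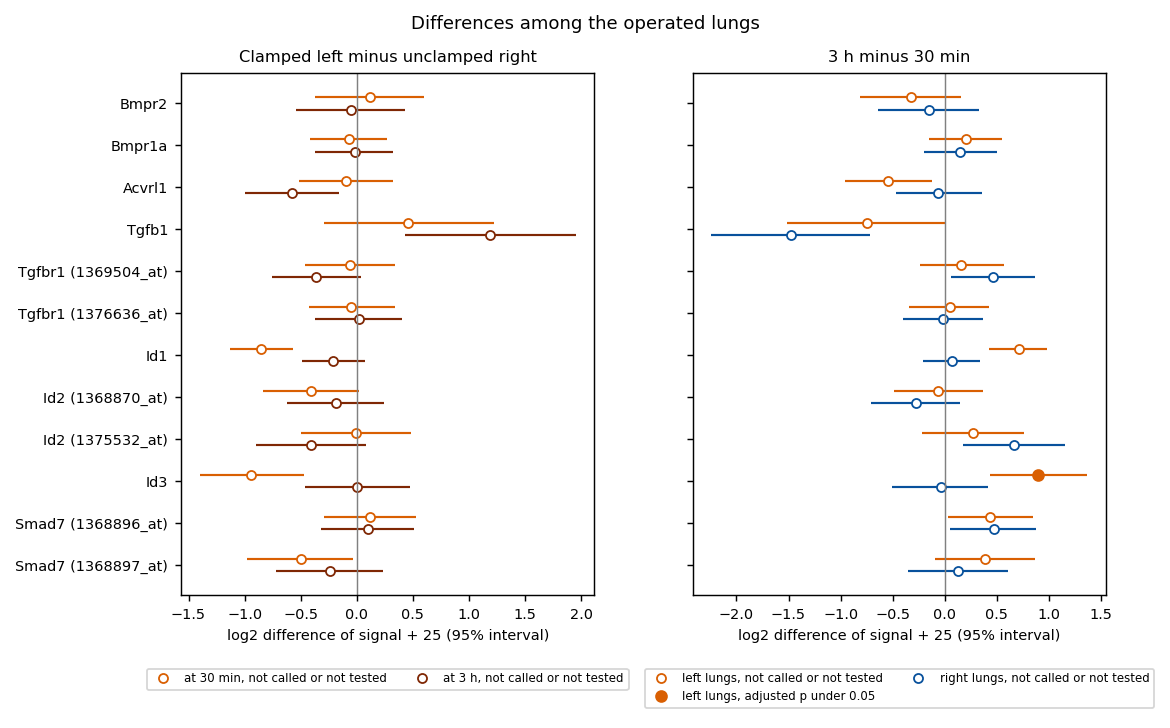
Log2 differences of signal + 25 with 95% intervals for the 12 tested member probe sets, clamped left minus unclamped right lungs (left panel) and 3 h minus 30 min (right panel), filled where called, with Bmpr2, Tgfb1 and Id1 open throughout because the set was selected on them. Id3 is called in left lungs at 3 h minus 30 min (0.9), and Id1 lies at -0.85 in left minus right lungs at 30 min.

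Other genes of the pathway were taken from lists of ligands, receptors, SMADs and cofactors, inhibitors and targets, of which 55 of 80 were tested. Against control 6 rose and 12 fell in left lungs at 30 min (32.7%, against 18.2% of all 7728 genes), 11 rose and 13 fell in left lungs at 3 h (43.6%, against 37.6%), 5 rose and 3 fell in right lungs at 30 min (14.5%, against 12.3%) and 3 rose and 10 fell in right lungs at 3 h (23.6%, against 20.4%). Without the arrays of high actin ratio 2 rose and 6 fell in left lungs at 30 min, where the calls over all probe sets were 637 against 2099 with them, and 3 rose and 4 fell in right lungs at 30 min. Of the 55 genes 4 (Bmp3, Acvr2b, Id4 and Amhr2) would not have met the signal filter on operated arrays alone, and they make up 2, 2, 2 and 3 of the falls in the 4 groups. A gene that enters the test through high controls is bound to be lower elsewhere, so those falls support nothing. Likewise 1 of the 11 rises in left lungs at 3 h, that of Fstl3, needed the operated arrays to meet the filter. With every array centred on its median the left 3 h counts became 15 and 7. The share of higher calls over all probe sets moved with them, to 60.8% after centring against 36.6% as deposited, as did the median difference, to 0.039 against -0.124.

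Of the ligand list 9 genes were tested, among them Bmp1, which encodes a protease. Bmp3 met the filter through the controls, so its values are a description with no p. Its means were 143, 150, 158 and 128 in the 4 operated groups, against 421 in controls (-1.36 ± 0.2, -1.31, -1.24 and -1.5). Tgfb2, another TGF-beta ligand, rose in all 4 by 0.59 to 0.76 (SE 0.13, limma adjusted p = 0.0056 or lower), opposite in sign to Tgfb1, though not called in left lungs at 30 min without the arrays of high actin ratio (adjusted p = 0.13). Bmp6 fell by 0.93 in right lungs at 3 h, by 0.54 in left lungs at 3 h and by 0.44 in right lungs at 30 min (SE 0.13, limma adjusted p = 8.8e-05, 0.0034 and 0.03), the last lost in 5 of the 27 other settings. Tgfb3 fell by 0.49 and 0.45 in left lungs at 30 min and 3 h and by 0.4 in right lungs at 3 h (SE 0.13, limma adjusted p = 0.013, 0.011 and 0.035), calls lost in 2, 3 and 11 settings. Of 6 other receptors 2, 1, 0 and 1 were called lower than control in the 4 groups and 0 higher, those at 3 h being Acvr2b. Of all genes 18.2%, 37.6%, 12.3% and 20.4% were called in either direction there, so no common direction of the receptors is read from 6 genes. The activin receptor Acvr2b met the filter through the controls, so its values are a description with no p. It was lower by 1.17 in left lungs at 3 h and by 0.97 in right lungs at 3 h (SE 0.24). The second difference was -0.61 without right 3 h replicate 2. The co-receptor Eng fell by 0.67 in left lungs at 30 min (limma adjusted p = 0.034), a call lost in 8 of the 27 settings (adjusted p from 0.0099 to 0.53 over all 27). The type I receptor Acvr1 fell by 0.6 there (SE 0.16, adjusted p = 0.013), a call lost in 2 settings, among them the arrays of high actin ratio left out (0.27).

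Smad1, which carries BMP signals, rose in all 4 groups, by 1.05 ± 0.14 in left lungs at 3 h (mean 2140, against 1020 in controls, limma adjusted p = 5e-05) and by 0.64 to 0.69 in the others, of which the call in left lungs at 30 min was lost when arrays of high actin ratio were left out (adjusted p = 0.11). The related Smad5 fell by 0.51 in left lungs and by 0.36 in right lungs at 3 h (SE 0.09, limma adjusted p = 0.00048 and 0.01), the second lost without right 3 h replicate 3 (0.053). The coactivator Crebbp fell by 0.61 in left lungs and by 0.52 in right lungs at 3 h (SE 0.18, limma adjusted p = 0.011 and 0.042), calls lost in 2 and 10 settings. The inhibitory Smad6, both an inhibitor and a target of BMP signals, fell in clamped lungs, to a mean of 307 at 30 min and 473 at 3 h, against 865 in controls (-1.45 ± 0.22 and -0.85 ± 0.22, limma adjusted p = 0.00021 and 0.0055). In right lungs Smad6 averaged 549 at 30 min and 796 at 3 h and was not called. Tgif1, a corepressor of SMADs, rose by 1.4 ± 0.28 in left lungs at 3 h (limma adjusted p = 0.001). Pmepa1, a TGF-beta target that restrains the pathway, averaged 1960 and 1920 in left lungs at 30 min and 3 h and 1770 in right lungs at 30 min, against 1130 in controls, and rose in these groups by 0.77, 0.75 and 0.64 (SE 0.18, limma adjusted p = 0.0063, 0.0038 and 0.026). Both calls at 30 min were lost without the arrays of high actin ratio (adjusted p = 0.057 and 0.075). Bambi, a decoy receptor, fell by 0.7 in left lungs at 30 min and by 0.66 in right lungs at 3 h (SE 0.17, limma adjusted p = 0.0091 and 0.013), each lost without 1 array (left 30 min replicate 2, adjusted p = 0.08, and right 3 h replicate 3, 0.06). The phosphatase Ppm1a rose by 0.52 in left lungs and by 0.65 in right lungs at 3 h (SE 0.14, limma adjusted p = 0.0076 and 0.0036), the first lost in 1 setting. The ubiquitin ligase Nedd4l rose by 0.49 in left lungs at 30 min (SE 0.16, adjusted p = 0.035), a call lost in 9 of the 27 settings.

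Among 16 targets tested, 2 rose and 6 fell in left lungs at 30 min, where 18.2% of all genes were called. In left lungs at 3 h 3 rose and 5 fell, where 37.6% of all genes were called. The 16 include Smad6, also listed as an inhibitor, and Id4, which met the filter through the controls. Col1a1, a collagen chain, fell to 1360 in left lungs at 3 h and 1850 in right lungs at 3 h, against 3320 in controls (-1.3 ± 0.2 and -0.89 ± 0.2, limma adjusted p = 0.00016 and 0.0058). Atoh8, a BMP-responsive transcription factor, fell by 0.99 in left lungs at 3 h (SE 0.16, limma adjusted p = 0.00016), and Klf10, induced early by TGF-beta, fell by 1.03 in right lungs at 3 h (SE 0.15, adjusted p = 0.00018). Cdkn2b, a cell cycle inhibitor induced by TGF-beta, averaged 98.7 in left lungs at 30 min (18.55 to 254.5), against 414 in controls (304.6 to 541.8), and fell by 2.37 there (SE 0.45, limma adjusted p = 0.0017). The call held with any 1 array left out. The difference ran from -3.24 to -1.55 over the 27 other settings. Among these, leaving out the arrays of high actin ratio leaves only replicate 2 in that group. The lowest signal there, 18.55, is near the 5th percentile of all signals (8.816), so the size of the fall is uncertain. Snai1, a transcription factor of epithelial-mesenchymal transition, fell by 0.61 in the same lungs (SE 0.11, limma adjusted p = 0.0015), a call lost without the arrays of high actin ratio (0.091). Another cell cycle inhibitor, Cdkn1a, rose by 1.17 ± 0.2 in left lungs and by 0.64 ± 0.2 in right lungs at 30 min (limma adjusted p = 0.00074 and 0.043), the second lost in 12 of the 27 settings. Junb rose by 1.28 ± 0.31 in left lungs at 3 h and by 1.26 ± 0.31 in right lungs at 30 min (limma adjusted p = 0.0044 and 0.014), the second lost in 1 setting. Id4, an Id family member, met the filter through the controls, so its values are a description with no p. It was lower by 1.19 in right lungs at 30 min and by 1.16 in right lungs at 3 h (SE 0.28). The first difference was -0.67 without right 30 min replicate 3. Among operated lungs 2 of the 55 were called, Ltbp2 (-0.66 ± 0.18, limma adjusted p = 0.049) and Col1a1 (-0.97 ± 0.24, adjusted p = 0.035), both lower at 3 h than at 30 min in left lungs, where 3.07% of all genes were called in either direction. Both calls were lost without the arrays of high actin ratio and without several single arrays. In the other comparisons among operated lungs 0.0518% (left against right at 30 min), 2.37% (left against right at 3 h), 0.194% (right lungs over time) and 0.233% (change of the left-right difference) of all genes were called.

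**Figure D4:**
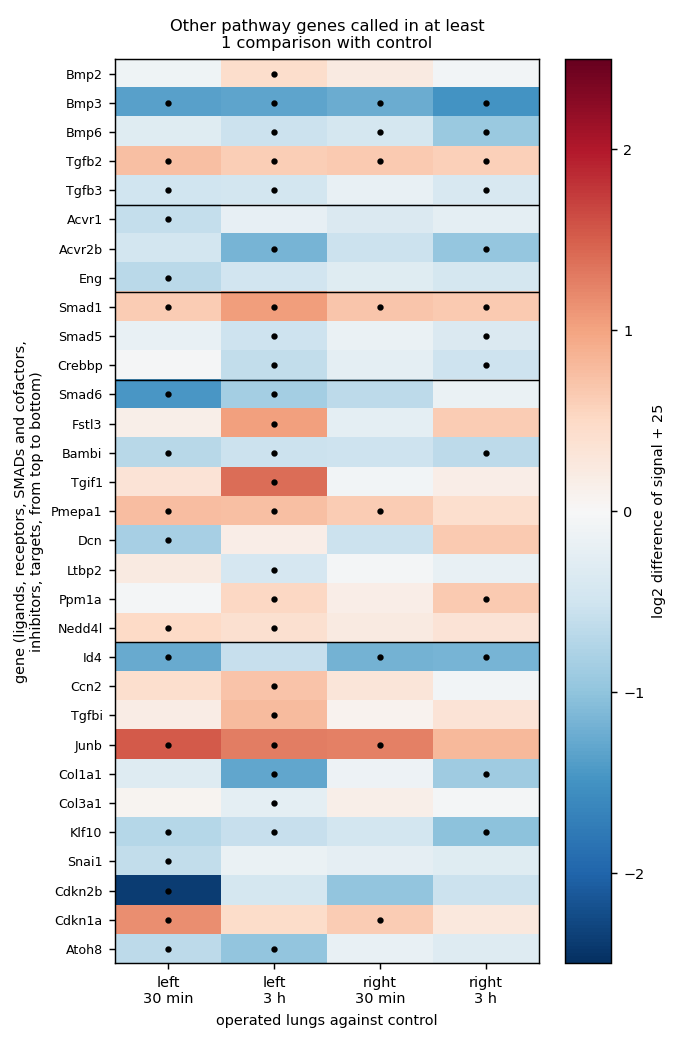
Log2 difference of signal + 25 from control in each operated group for the 31 other pathway genes called at least once, with a dot at each of the 63 calls. Tgfb2 and Smad1 are above control in all 4 operated groups. Bmp3, Acvr2b and Id4 met the signal filter through the controls, so their falls support nothing. Fstl3 needed the operated arrays to meet it.

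Likeness over the 18 arrays is given as Pearson's r of log2(signal + 25), across groups that differ in mean, for description. The closest genes to Bmpr2 of 7727 were Chtf8 (0.974), Foxo1 (0.97), Cpd (0.94), Prkaa2 (0.939) and Maoa (0.936). Within groups the same r was 0.49, 0.55, 0.14, -0.14 and 0.24. For Tgfb1 they were Rfx1 (0.914), Fam193a (0.901), Syvn1 (0.893), Cbl (0.874) and Rbm14 (0.874), with r within groups of 0.63 to 0.85. For Id1 they were Rnf144b (0.837), Pomgnt2 (0.811), Cox5b (0.793), Slc33a1 (0.781) and Mief1 (0.778), with r within groups of -0.17 to 0.38. Among the members Bmpr2 and Bmpr1a were most alike (0.87, and 0.29 within groups).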

How the data were processed

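Total RNA of 18 lungs was measured on Affymetrix rat 230A arrays. The deposited values are signal intensity per probe set on a linear scale, made by the authors with MAS5, per the submitters' processing notes (the version of MAS5 is not given in the sources), and each array had a 2% trimmed mean of 500.1 as deposited. No further scaling was applied. The file's 57 control probe sets were left out. Gene symbols came from the platform annotation, which gave 1 symbol to 12783 probe sets, several to 312 and none to 2771, and 0 symbols changed against RefSeq.

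Values were analysed as log2(signal + 25), with testing limited to probe sets that in 3 or more arrays exceeded the 40th percentile of all signals (173.6). This left 10533 probe sets, or 7728 genes by the probe set of highest mean. limma 3.58.1 in R 4.3.3 (lmFit, eBayes) was fitted to 5 group means over all 18 arrays, with two-sided p-values adjusted by Benjamini-Hochberg within each comparison. Fold changes on this scale understate changes of dim probe sets. The fitting code was tested on simulated data. Python 3.11.15, pandas 2.3.3 and matplotlib 3.10.9 made sequence searches and figures.

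The members, gene lists and marker lists were chosen with earlier results of these data known. All members were named with every probe set, and of the other pathway genes, per list and comparison, up to 4 of the smallest adjusted p among those called. Comparisons of Bmpr2, Tgfb1 and Id1 among operated lungs were first planned as tests and are given without a p, because the set was selected on the same arrays. The table of promoters held 7 of the 10 members with a full window of 150 bases before the gene's outermost start.

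Each operated rat gave its left and its right lung, per the labels' protocols, but the labels do not say that replicate numbers mark rats. Deviations from the group means of same-numbered left and right lungs correlated at 0.12, 0.31 and 0.15 at 30 min. At 3 h they correlated at -0.17, 0.07 and -0.15. Lungs of different number reached similar values at 3 h. These were 0.34 (left 1 and right 3), 0.22 (left 2 and right 1) and 0.16 (left 3 and right 2). Which lungs share a rat therefore cannot be told from these correlations. The fits without the block are the main ones. The correlations were read after the block's counts of calls had been seen. Settings tried were the pseudocount, the filter, quantile and median scaling, an eBayes trend, the arrays of high actin ratio (over 2) left out, the replicate block, only the compared groups, any probe set of a gene, and each array left out.

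Other choices were also made after results had been seen. The 95% intervals use the moderated 17.4 degrees of freedom in place of the residual 13. The promoter windows were cut to the bases before the outermost start, so that no transcribed base is shown, after motif matches in the longer windows had been seen, and the Id promoters were picked for display because of the Id results. In the gene lists 2 older symbols were replaced by current ones. None of these choices enters a p-value of a member.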

Additional observations from a re-analysis of the deposited data

Results flagged for a closer look

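Id3 was higher at 3 h than at 30 min in clamped left lungs, with a log2 difference of 0.9 ± 0.22 (SE, limma adjusted p = 0.035). Each of the 3 lungs at 3 h lay above each at 30 min, as 9.12% of all tested probe sets did. This difference between groups passed the test, and the settings that end the call are given with the result. The change of the left-right difference was not called for this gene.

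In the dimmer Id2 probe set control replicate 2 lay apart from the other controls, with a signal of 240.4 against 351.6 to 422.2. Its gap to the nearest control was 0.671 of the range of the 6 controls on the log2 scale. Chance sets a sample this far apart in about 1 of 20 groups, and the controls of all 13 member probe sets were searched.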

How the results depend on the processing

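Of 1215 values of the 45 results of members other than Bmpr2, Tgfb1 and Id1 among operated lungs, over 27 other settings, 1147 kept their direction and side of the threshold, 7 lost a call, 2 gained one and 59 changed sign while uncalled, and 0 turned a called direction. Against control 1236 of 1296 member values moved by less than the spread of the controls, and of 1377 values of named other pathway genes 108 lost a call. The 7 lost calls were those of Id3 in left lungs at 3 h against 30 min, which ran from 0.55 to 1.08 (limma adjusted p from 0.019 to 0.7) and was also lost with no filter (0.056) and with only the compared groups in the fit (0.15). The 2 gained were those of Acvrl1 without left 3 h replicate 3, in left against right lungs at 3 h (0.019) and in left lungs at 3 h against 30 min (0.015). As a description, Id1 ran from -1.03 to -0.75 in left against right lungs at 30 min and from 0.61 to 0.9 in left lungs at 3 h against 30 min. The causes were not tested.

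Counts of called probe sets moved by over 1.5 times in these cases. In left against right lungs at 30 min (4) they were 8 at a pseudocount of 100, 8 with the replicate block, and 0 without the arrays of high actin ratio and with only the compared groups. In left against right lungs at 3 h (240) they were 138 with no filter, 361 with the replicate block and 27 with only the compared groups. In left lungs at 3 h against 30 min (366) they were 192 with no filter, 19 without the arrays of high actin ratio and 27 with only the compared groups. In right lungs at 3 h against 30 min (21) they were 10 with no filter, 13 with arrays centred on their median, and 0 in the last 2 settings. The change of the left-right difference (24) gave 5 and 8 there, and left lungs at 30 min against control (2099) gave 637 without the arrays of high actin ratio. Leaving out 1 array gave 1309 to 2253 in left lungs at 30 min, 2299 to 4161 in left lungs at 3 h, 811 to 1552 in right lungs at 30 min and 1417 to 2426 in right lungs at 3 h, all against control. It gave 1 to 16 and 35 to 461 in left against right lungs at 30 min and at 3 h, 53 to 776 and 0 to 60 at 3 h against 30 min in left and in right lungs, and 10 to 30 for the change over time in left against right lungs. The replicate block changed no call of a member, and of the other named pathway genes it lost Ltbp2 in left lungs at 3 h against 30 min (limma adjusted p = 0.051).

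Centring on the median moved the share of higher calls to 62.2% against 43.6% as deposited (left 30 min against control), to 57% against 45.4% (right 30 min against control), to 55.9% against 38.5% (right 3 h against control), to 85% against 72.1% (left against right at 3 h) and to 63.6% against 45.9% (left at 3 h against 30 min).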
